A study of Mus musculus with 6 samples.

Results

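The 10 genes described here, Atf4, Atf3, Atf5, Ddit3, Ddit4, Trib3, Chac1, Ppp1r15a, Asns and Sesn2, code for ATF4 and for regulators and targets of the stress response that it leads. They were taken by symbol from a table of raw read counts for 24379 genes, and all 10 were found and passed the filter on low counts, as did 14360 genes in all. The counts come from 6 RNA sequencing libraries of RAW264.7 cells, an established mouse line with macrophage traits that was derived from a virus-induced tumour. By label, 3 libraries came from cells given HFCS, high-fructose corn syrup, whose sugars are mainly free glucose and fructose, and 3 from cells marked WT, called control here, all at 18 h. The titles and treatment labels give a dose of 140 mM while the source names give 170 mM, so which was used is uncertain. The same protocol text, which speaks of HFCS alone, is attached to the control samples, so what those cells received is not stated. No gene was altered in either group as far as the labels say.

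ATF4 is a leucine-zipper transcription factor at the centre of the integrated stress response. Kinases that sense starvation, misfolded protein in the endoplasmic reticulum, viral RNA or mitochondrial trouble phosphorylate the translation factor eIF2, which slows protein synthesis in general while the message of ATF4 is translated more. ATF4 then switches on genes for amino acid supply, further transcription factors such as ATF3 and CHOP, and brakes on the response itself. In macrophages the pathway is known to respond to infection, to lipid loading and to shortage of amino acids. RNA counts show the messages only, and neither eIF2 phosphorylation nor ATF4 protein was analysed here.

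Promoter sequence was looked at because ATF4 and its partners are known to bind short elements near the starts of such genes. RefSeq windows (build GRCm38.p6) were matched for all 10 genes, 11 windows in all, and the 250 bases before each start were searched on both strands for TGATGNAA, the core of the C/EBP-ATF response element, and for TGACGTCA, the cyclic AMP response element, and its variant TGACGNAA. The first was found for Asns, Atf3 and Chac1, against 3.45% of all 32851 windows of that length, TGACGNAA for Atf3 and Chac1 (1.39% of all windows) and TGACGTCA for Ppp1r15a (1.55% of all windows). The stretches that hold them are printed with the matched letters in capitals, each on the strand of its gene, to set the 3 genes that rose beside Asns, which was not called. None of the matches overlap one another. A match of letters does not show that a factor binds there. For the other 6 genes the 250 bases searched lack these letters, and sequence beyond those bases was not searched.
Chac1: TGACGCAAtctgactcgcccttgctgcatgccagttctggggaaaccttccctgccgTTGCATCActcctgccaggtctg
Atf3: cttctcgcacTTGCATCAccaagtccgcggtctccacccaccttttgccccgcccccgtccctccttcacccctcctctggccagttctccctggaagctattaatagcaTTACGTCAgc
Ppp1r15a: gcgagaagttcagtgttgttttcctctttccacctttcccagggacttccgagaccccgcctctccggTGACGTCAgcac
Asns: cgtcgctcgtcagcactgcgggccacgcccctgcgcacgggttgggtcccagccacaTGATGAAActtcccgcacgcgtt
These lie at chr2:119350992-119351071 on the plus strand for Chac1 and, on the minus strand, at chr1:191183334-191183453 for Atf3, chr7:45526269-45526348 for Ppp1r15a and chr6:7693210-7693289 for Asns. In Chac1 the matches begin 250 and 193 bases before the start, in Atf3 110 and 10 bases before it, in Ppp1r15a 12 and in Asns 23 bases before it.

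Total counts were 13108485 to 15340255 per library. By these unscaled totals, the floor of 3 counts equals 0.196 to 0.229 CPM (counts scaled to a common library total). All other CPM values use the scaled library sizes. The first principal component, with 70.0% of the variance, parted the groups, and on the second, with 11.8%, control replicate 1 had a score of 29.3, apart from the scores of -14.2 and -13.4 in control replicates 2 and 3. HFCS replicate 3 also stood apart there, at -18.9, against 8.89 and 8.23 in HFCS replicates 1 and 2. Of 10 macrophage markers, 9 were tested, of which 7 rose and 2 fell under the HFCS label. For comparison, 22.4% of all tested genes were higher and 22.5% lower (edgeR adjusted p under 0.05). The summed level of the 10 markers was 2521 to 2630 CPM in the HFCS-labelled libraries, against 1957 to 2031 CPM in the control-labelled libraries. Mertk had no counts under the HFCS label, and the part of these markers in the results was not tested. Markers of other cells were low in both groups. Of them, 1 fibroblast, 1 lymphocyte and 1 granulocyte or mast cell marker passed the count filter, and none was called. Over 6 of 8 fibroblast markers matched, the sum was 0.916 to 2.01 CPM under the HFCS label, against 0.208 to 1.06 CPM under the control label. In the same order, it was 0 to 0.131 against 0.0706 to 0.208 CPM over 2 of 7 epithelial markers. Over 6 of 9 lymphocyte markers it was 4.06 to 4.62 against 4.52 to 5.06 CPM, above the floor in every library. Over 5 of 7 granulocyte and mast cell markers it was 1.20 to 1.44 against 1.18 to 1.25 CPM. Krt8 was at 0 in each HFCS-labelled library, and Mpo, Dcn, Col3a1, Pdgfra and Krt19 in each control-labelled one. Akr1b3, the aldose reductase gene that hypertonic medium is known to induce, was at 208 ± 12 CPM under the HFCS label and at 7435 ± 381 CPM under the control label (mean ± SD, n = 3 each). Slc5a3 and Slc6a12, osmolyte transporter genes known to be induced in the same way, were at 146 ± 5.42 and 131 ± 4.21 CPM under the HFCS label, against 562 ± 60.9 and 449.6 ± 21.2 CPM under the control label. A sugar load of this size makes medium hypertonic, and all 3 genes went the other way. Whether the labels were exchanged, or the control medium held an osmolyte, was not tested and cannot be told from the files. Libraries are therefore named by their labels, and with exchanged labels every direction and rank reported would turn round. In bulk RNA, a change in the share of cells that make a message and a change in its amount per cell cannot be told apart. Nothing in the labels says that replicates came from separate cultures, and the spread that p-values measure may thus be technical.

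The comparison set HFCS-labelled against control-labelled macrophage-like cells. Of the 10 genes, 8 rose in the HFCS-labelled libraries, none fell, and Asns and Ddit4 did not pass the test. All 10 fold changes were positive, with edgeR and with DESeq2 alike, so none was lower at an unadjusted p under 0.05 either. Across all 14360 tested genes, 44.9% were called, 22.4% higher and 22.5% lower, at an adjusted p under 0.05 by the quasi-likelihood test of edgeR, adjusted by Benjamini-Hochberg. That made 3223 higher and 3224 lower calls, while with library-size scaling 60.2% of calls were higher and the median of all genes moved to 0.08 on the log2 scale. All 8 genes that rose had every HFCS-labelled library above every control-labelled one, which held for 27.4% of all tested genes, and 54.5% lay apart in either direction. At least 2-fold rises were called for Trib3, Chac1, Ppp1r15a and Atf3, against 4.24% of all tested genes, and 10.6% passed that limit in either direction. The median log2 fold change was 0.81 over the 10 genes and -0.0045 over all tested genes. Some of the 10 genes are also known to respond to signals other than eIF2 phosphorylation, Atf3 and Ppp1r15a to mitogens and inflammatory stimuli among them.

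**Figure D1:**
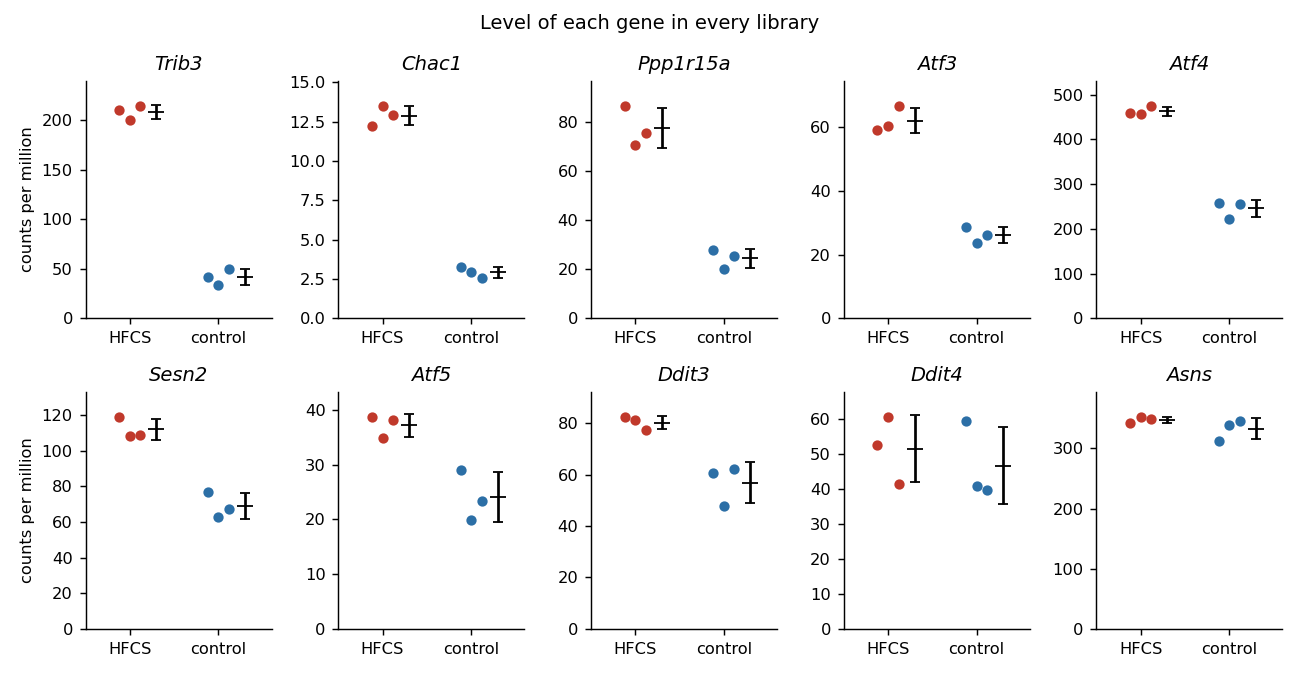
Level in CPM (vertical axis, starting at 0) of each of the 10 genes in the 3 HFCS-labelled (left, red) and 3 control-labelled (right, blue) libraries, with the mean and SD in black beside the points. The groups lie apart for 8 genes, and overlap for Ddit4 and Asns.

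Atf4 itself (ENSMUSG00000042406, mm10 chr15:80255184-80257541, plus strand) had 459, 456 and 474 CPM in HFCS-labelled replicates 1 to 3, against 258, 222 and 256 CPM in control-labelled replicates 1 to 3. The groups were far apart, and the HFCS-labelled libraries differed among themselves by less than the control-labelled ones. Atf4 rose by 0.92 ± 0.07 (log2 fold change ± SE), or 1.89-fold, with an edgeR adjusted p of 6.2e-06. Behind these levels stood 6180, 6971 and 7483 counts in the HFCS-labelled and 3724, 3029 and 3623 counts in the control-labelled libraries.

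Atf3, a leucine-zipper factor that ATF4 induces and that is best known as a repressor of inflammatory genes in macrophages, had 59.3, 60.3 and 66.5 CPM under the HFCS label and 28.5, 23.6 and 26.3 CPM under the control label, each in the order of replicates 1 to 3, as for the genes that follow (ENSMUSG00000026628, chr1:191170296-191218039, minus strand). Each HFCS-labelled library was above 2 times the highest control-labelled one. The log2 fold change was 1.25 ± 0.10 (SE), with an edgeR adjusted p of 4.8e-06.

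Atf5 is a close relative of ATF4 whose message is translated by the same upstream reading-frame switch and which is known for inducing mitochondrial chaperones. It had 38.7, 34.9 and 38.2 CPM under the HFCS label and 29.1, 19.9 and 23.4 CPM under the control label (ENSMUSG00000038539, chr7:44812256-44816658, minus strand). The groups did not overlap, but the gap between the lowest HFCS-labelled and the highest control-labelled library was narrower than the range of the control-labelled libraries. Atf5 rose by 0.62 ± 0.13 on the log2 scale, with an edgeR adjusted p of 0.0030.

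Ddit3 codes for CHOP, which pairs with C/EBP factors and drives genes of cell death when stress lasts. Its levels were 82.4, 81.1 and 77.4 CPM under the HFCS label and 60.7, 47.8 and 62.1 CPM under the control label (ENSMUSG00000025408, chr10:127290774-127296288, plus strand). The groups did not overlap, with control replicate 2 lowest of all. Of the genes that rose it had the lowest fold change, 0.50 ± 0.10 on the log2 scale or 1.41-fold, with an edgeR adjusted p of 0.0022. The counting is not stated to use strand, and exons of Ddit3 share 68 bases with Mars, a gene on the opposite strand with 11464 summed counts under the HFCS label and 12076 under the control label. Exons of Atf5 likewise share 82 bases with Nup62 on the opposite strand, which had 7178 and 6287 counts over those groups. Reads from shared bases may have been counted for either gene or for neither, and their share for Ddit3 and Atf5 was not tested.

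Trib3 and Ppp1r15a, which both act as brakes on the pathway, had higher fold changes than the 4 transcription factors, a difference that was not tested. Trib3 codes for a pseudokinase that binds ATF4 and dampens its activity, and that also binds the kinase AKT. It had 210.2, 201 and 214 CPM under the HFCS label and 41.8, 33.6 and 49.8 CPM under the control label (ENSMUSG00000032715, chr2:152337422-152344032, minus strand). Even the lowest HFCS-labelled library was above 4 times the highest control-labelled one. The log2 fold change was 2.32 ± 0.12, or 4.99-fold, with an edgeR adjusted p of 3e-07, and it ranked 81st from the top by fold change among the 14360 tested genes, a rank that would count from the bottom if the labels were exchanged.

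Ppp1r15a codes for GADD34, which guides protein phosphatase 1 to eIF2 and so restores translation. Its levels were 86.2, 70.6 and 75.6 CPM under the HFCS label and 27.8, 20.1 and 25.3 CPM under the control label (ENSMUSG00000040435, chr7:45522916-45526268, minus strand). The groups lay well apart, and the fold change was 1.66 ± 0.12 on the log2 scale, or 3.17-fold, with an edgeR adjusted p of 3.8e-06. By fold change it ranked 182nd. Ppp1r15b, the partner gene for the constitutive form of that phosphatase, rose by 0.32 ± 0.06 on the log2 scale, at 338 ± 1.23 CPM under the HFCS label and 272 ± 5.92 CPM under the control label (edgeR adjusted p = 0.0014).

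Among the effectors, Chac1 had the highest fold change. CHAC1 is an enzyme that breaks down glutathione and is known as a target reached through ATF4, ATF3 and CHOP. Its message was rare, with 165, 206 and 204 counts in HFCS-labelled and 47, 40 and 36 counts in control-labelled replicates 1 to 3, or 12.3, 13.5 and 12.9 CPM against 3.26, 2.94 and 2.54 CPM (ENSMUSG00000027313, chr2:119351229-119354381, plus strand). The groups were separated by more than the whole level of any control-labelled library. Chac1 rose by 2.14 ± 0.16 on the log2 scale, or 4.41-fold, with an edgeR adjusted p of 4e-06, and ranked 98th by fold change.

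Sesn2 and Ddit4 both code for inhibitors of the growth kinase complex mTORC1, and only Sesn2 passed the test. Sestrin 2, a leucine sensor, had 119, 108 and 109 CPM under the HFCS label and 76.8, 62.6 and 67.3 CPM under the control label (ENSMUSG00000028893, chr4:132492032-132510501, minus strand). The groups did not overlap, with control replicate 2 again the lowest. Sesn2 rose by 0.70 ± 0.09 on the log2 scale, with an edgeR adjusted p of 1.1e-04. Ddit4 codes for REDD1, which acts through the TSC complex and is also induced by hypoxia and glucocorticoids. Its levels were 52.6, 60.4 and 41.4 CPM under the HFCS label and 59.2, 40.8 and 39.7 CPM under the control label (ENSMUSG00000020108, chr10:59949669-59951834, minus strand). The groups overlapped across nearly their whole range. Its log2 fold change was 0.14 with a 95% interval of -0.23 to 0.51 (edgeR adjusted p = 0.52), so the data allow a change of either sign. Of the libraries left out in turn, only control replicate 1 changed that outcome. Without it the log2 fold change was 0.36 with an edgeR adjusted p of 0.026. The fold change also moved with HFCS-labelled libraries left out, to 0.02 without replicate 2 and 0.29 without replicate 3. Over all alternatives the adjusted p was 0.026 to 0.94. Calls over all genes also rose without control replicate 1, from 6447 to 7550. Whether the fold changes of Sesn2 and Ddit4 differ was not tested.

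Asns codes for asparagine synthetase, one of the best-known targets of ATF4 under amino acid shortage. Its levels were 342, 352 and 349 CPM under the HFCS label and 312, 339 and 346 CPM under the control label (ENSMUSG00000029752, chr6:7675169-7693254, minus strand). The lowest HFCS-labelled library lay below the highest control-labelled one. The log2 fold change was 0.06 with a 95% interval of -0.08 to 0.21 (edgeR adjusted p = 0.45). That interval ends far below the intervals of Trib3, 2.06 to 2.58, and of Atf4, 0.75 to 1.08.

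**Figure D2:**
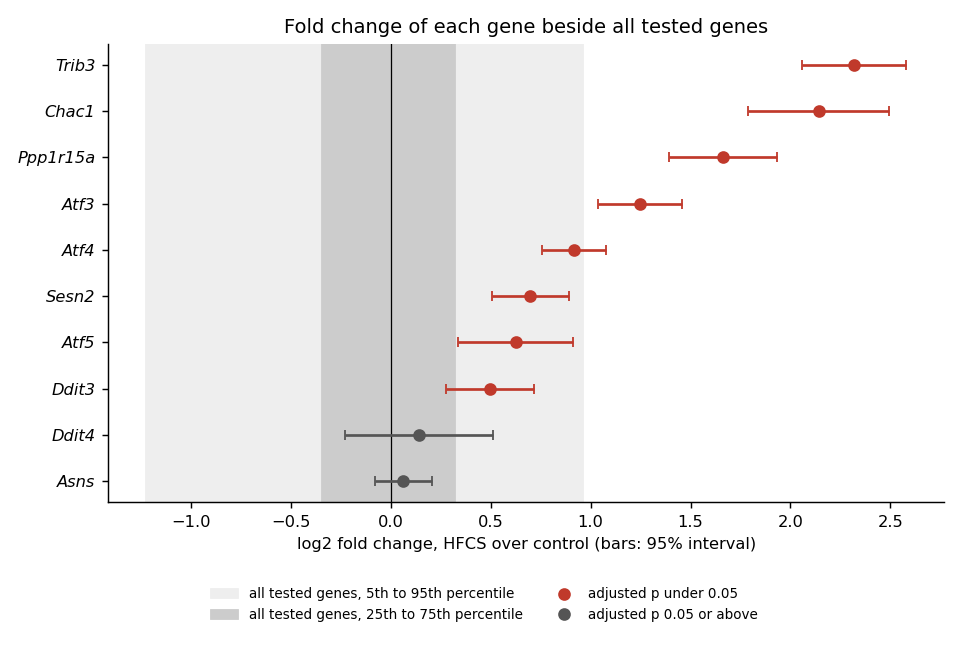
Log2 fold change of each gene, HFCS-labelled over control-labelled (horizontal axis), with its 95% interval. Grey bands give the 25th to 75th percentile of all tested genes, -0.34 to 0.32, and the 5th to 95th, -1.22 to 0.96. Trib3, Chac1, Ppp1r15a and Atf3 lie beyond the wider band with their whole intervals, while the intervals of Ddit4 and Asns include 0.

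Measured against Atf4 within each library, which no scaling between libraries can alter, the other genes divided by direction. Counts of Trib3 were 45.0 ± 0.918% of those of Atf4 in HFCS-labelled and 16.9 ± 2.26% in control-labelled libraries (mean ± SD over 3 libraries). Chac1 stood at 2.78 ± 0.151% and 1.19 ± 0.174%, Ppp1r15a at 16.7 ± 1.79% and 9.91 ± 0.861%, and Atf3 at 13.4 ± 0.585% and 10.6 ± 0.385%. For these 4 genes every HFCS-labelled library was above every control-labelled one, so their counts rose by more than those of Atf4. The reverse held for the other 5 genes. Counts of Asns were 75.1 ± 1.83% of those of Atf4 in HFCS-labelled and 136 ± 15.7% in control-labelled libraries, so that Asns was the more often counted in the control-labelled libraries and Atf4 in the HFCS-labelled ones. Ddit3 stood at 17.4 ± 0.890% and 23.1 ± 1.44%, Sesn2 at 24.2 ± 1.52% and 28.1 ± 1.71%, Atf5 at 8.04 ± 0.392% and 9.79 ± 1.27%, and Ddit4 at 11.2 ± 2.27% and 18.9 ± 3.73%. These ratios come from the same counts as the fold changes above and restate them relative to Atf4. They were given no test, and an exact permutation test of 3 libraries against 3 could not go below a p of 0.1.

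**Figure D3:**
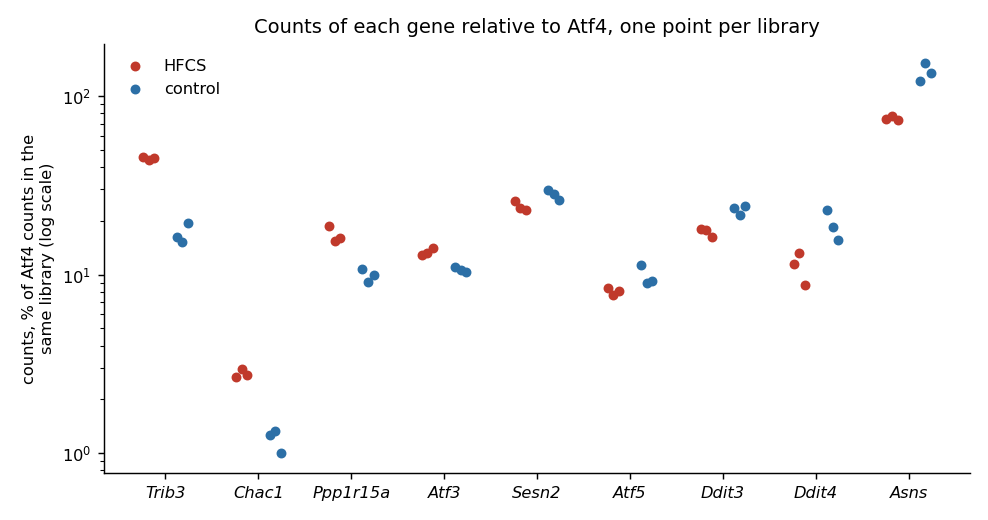
Counts of each gene as a percentage of Atf4 counts in the same library (vertical axis, log scale), with HFCS-labelled libraries left in red and control-labelled libraries right in blue. Trib3, Chac1, Ppp1r15a and Atf3 are higher relative to Atf4 in the HFCS-labelled libraries, and Sesn2, Atf5, Ddit3, Ddit4 and Asns are lower.

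Per length, the order of the messages also differed between the groups. In the HFCS-labelled libraries, levels in CPM per kilobase of annotated exon were 196 ± 4.02 for Atf4, 127 ± 1.93 for Asns, 98.0 ± 3.25 for Trib3 and 46.9 ± 1.52 for Ddit3, each apart from the next by more than its SD. In the control-labelled libraries, Asns came first at 122 ± 6.49, then Atf4 at 104 ± 8.51, Ddit3 at 33.2 ± 4.61 and Ddit4 at 26.5 ± 6.25 on the same scale. Trib3, next after Asns in the HFCS-labelled libraries, lay at 19.6 ± 3.80 in the control-labelled ones, no further from Sesn2 at 19.8 ± 2.08 than their SDs. Chac1 was lowest in both groups, at 7.87 ± 0.372 and 1.78 ± 0.220 on that scale.

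The genes also varied more within the control group. All 10 had a higher coefficient of variation among control-labelled than among HFCS-labelled libraries, where 66.4% of all tested genes did. Its median over the 10 genes was 5.04% in HFCS-labelled and 13% in control-labelled libraries, beside 7.80% and 11.2% over all tested genes. Control replicate 2 was the lowest control-labelled library for 7 of the genes, against 32% of all tested genes, and control replicate 1 the highest for 7, against 38.4% of all tested genes. The median deviation from the group's mean level was -0.17 in control replicate 2 and 0.14 in control replicate 1 on the log2 scale, and at most 0.03 in size in any HFCS-labelled library.

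Upstream of ATF4, genes for the machinery of eIF2 were called in both directions. Over all tested genes, 44.9% were called, 22.4% higher and 22.5% lower. Of 18 genes for the eIF2 kinases, eIF2, its exchange factor eIF2B and their helpers, Ppp1r15b rose, 4 fell and 13 missed the threshold, and the median log2 fold change was -0.03. Those that fell were Eif2s3x (-0.48), the eIF2 gamma subunit, Impact (-0.44), an inhibitor of the kinase GCN2, Eif2b3 (-0.30) and Eif2s2 (-0.27), and only 2 fell without HFCS replicate 1, without HFCS replicate 2 or without control replicate 3, while 2 genes rose without control replicate 2. With library-size scaling, 4 rose and 2 fell, while 5 fell with upper-quartile scaling and 6 fell without control replicate 1. None of the 4 kinase genes passed the adjusted test in edgeR, with log2 fold changes of 0.21 for Eif2ak1, -0.22 for Eif2ak2, -0.02 for Eif2ak3, which codes for PERK, and -0.13 for Eif2ak4. Eif2ak1 and Eif2ak2 had an unadjusted p under 0.05, in opposite directions. Their activity is set by phosphorylation and was not analysed here.

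Other known targets of ATF4 moved both ways, where 22.4% of all tested genes were higher and 22.5% lower. Of 30 tested, 13 rose, 8 fell and 9 did not pass, and the log2 fold changes had a median of 0.08. With library-size scaling 5 fell. The smallest adjusted p-values belonged to the growth factor gene Vegfa, with 263 ± 19.8 CPM under the HFCS label and 96.3 ± 5.53 CPM under the control label, the stanniocalcin gene Stc2 (46.2 ± 1.71 and 20.7 ± 1.22 CPM), the cholesterol-esterifying enzyme gene Soat2 (132 ± 5.37 and 60.3 ± 7.71 CPM) and the autophagy receptor gene Sqstm1 (1168 ± 71.4 and 533 ± 69.8 CPM), each above 2-fold higher in the HFCS-labelled libraries. Jdp2 (1.08) and Gadd45a (1.76) rose past 2-fold as well, which made 6 such genes. Gadd45a was counted rarely and shares 337 exon bases with E230016M11Rik on the opposite strand, which had 62 summed counts under the HFCS label and 19 under the control label. The genes of serine synthesis, named here after their values were seen, all fell, with log2 fold changes of -0.33 for Phgdh, -0.45 for Psat1 and -0.36 for Psph, while the folate enzyme genes Mthfd2 (0.38) and Aldh1l2 (0.47) rose. Of the transporters, Slc7a1 (0.52), Slc6a9 (0.71), Slc38a2 (0.42) and Slc1a4 (0.33) rose and Slc7a5 (-0.21) fell, and the cystine transporter gene Slc7a11 had a log2 fold change of 0.07 (edgeR adjusted p = 0.64). Nupr1 (-0.40), Gpt2 (-0.46), Map1lc3b (-0.46) and Aldh18a1 (-0.20) were the other genes that fell.

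Aminoacyl-tRNA synthetases that ATF4 is known to induce rose by less than 2-fold where they rose. The shares over all tested genes were 22.4% higher and 22.5% lower. Of 12 tested, Wars (0.60), Iars (0.41), Nars (0.28), Sars (0.27), Aars (0.22) and Tars (0.20) rose, Gars (-0.30) fell and 5 did not pass, and the log2 fold changes had a median of 0.17. With upper-quartile scaling 2 genes fell, and 4 rose in place of 6. Without HFCS replicate 1, control replicate 2 or control replicate 3, 4 rose in each case, and 5 rose with DESeq2. With library-size scaling and with no filter on low counts, 7 rose.

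Genes for partners, brakes and leucine-zipper relatives of ATF4 were mostly higher, where 22.4% of all tested genes were higher and 22.5% lower. Of 22 tested, 15 rose, Atf7 (-0.49) fell and 6 did not pass, and the log2 fold changes had a median of 0.69. The smallest adjusted p-values belonged to Fos, with 48.9 ± 12.3 CPM under the HFCS label and 5.07 ± 0.178 CPM under the control label, Fosl2 (267 ± 8.61 and 94.8 ± 11.9 CPM), Crem (27.0 ± 3.36 and 8.26 ± 0.609 CPM) and Mafg (287 ± 7.29 and 174 ± 9.94 CPM). Among the C/EBP genes, whose proteins pair with ATF4 on the response element, Cebpb (0.74), Cebpd (1.26) and Cebpg (0.57) rose, and Cebpa (0.36) and Cebpe (0.49) did not pass. Trib1, a relative of Trib3 that marks C/EBP alpha for destruction, rose by 1.09. These relatives include the immediate-early genes, which moved with the same groups as Atf3 and Ppp1r15a, and their part in those values was not tested. Without control replicate 1, 2 genes of the list fell in place of 1.

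The other arms of the unfolded protein response had genes called in both directions. So did all tested genes, of which 22.4% were higher and 22.5% lower. Of 28 tested genes of the ATF6 and XBP1 arms, 10 rose, 7 fell and 11 did not pass, and the log2 fold changes had a median of -0.0061. The gene Ern1, which codes for the sensor IRE1, had 247 ± 1.90 CPM under the HFCS label and 157 ± 4.94 CPM under the control label, and the degradation genes Sel1l (294 ± 10.9 and 182 ± 10.1 CPM) and Derl1 (276 ± 5.01 and 184 ± 5.60 CPM) were higher too. Edem1, which helps to pull misfolded glycoproteins out of the folding cycle, fell by 0.80 on the log2 scale to 277 ± 11.2 CPM in HFCS-labelled libraries, against 483 ± 16.3 CPM in control-labelled ones. Among the chaperones, Hspa5 (-0.20), which codes for BiP, Hsp90b1 (-0.52) and Calr (-0.55) fell, and Hyou1 (0.45) and Manf (0.57) rose. In place of 7, 4 genes fell without HFCS replicate 1, 2 or 3 in turn, with library-size scaling and with no filter on low counts. More fell in other fits, with 9 under upper-quartile scaling or without control replicate 1, and 8 with the replicate block.

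In the lists of effectors, directions were mixed, beside 22.4% of all tested genes called higher and 22.5% lower. Of 15 tested genes for sestrins and mTORC1 control other than Sesn2 and Ddit4, Akt1s1 (0.54) rose and Sesn1 (-1.14), Deptor (-0.42), Nprl2 (-0.47) and Castor1 (-0.33) fell, and only 2 fell without HFCS replicate 1, while 3 rose with library-size scaling. Sesn1, a sestrin best known as a p53 target, had 22.1 ± 0.872 CPM under the HFCS label and 48.6 ± 1.97 CPM under the control label, the opposite direction to Sesn2. The median over the list was -0.11 on the log2 scale. Of 9 tested genes of glutathione breakdown and synthesis, Dpep2 (1.23) rose, 5 fell and 3 did not pass, with a median of -0.33. The genes that fell were Gclm (-0.68) and Gclc (-0.51), which form the rate-limiting enzyme of glutathione synthesis, Gsr (-0.41), which recycles it, Gss (-0.33) and the scarcely counted Ggt1 (-2.04), and 3 fell without HFCS replicate 1 or without HFCS replicate 2. Chac2, the relative of Chac1, had 8.59 ± 0.986 CPM under the HFCS label and 9.61 ± 0.701 CPM under the control label, with a log2 fold change of -0.16 (edgeR adjusted p = 0.41).

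Genes listed as known targets of CHOP or for cell death or survival were higher where they passed the test. Of 11 tested, 7 rose, none fell and 4 did not pass, against 22.4% of all tested genes higher and 22.5% lower. The log2 fold changes had a median of 0.46. Only 5 rose without HFCS replicate 1, HFCS replicate 2 or control replicate 3, and 6 without control replicate 2. With library-size scaling, with the replicate block and without control replicate 1, 8 rose. Car6, which codes for a carbonic anhydrase with a stress-induced form under CHOP control, had 14.2 ± 2.08 CPM under the HFCS label and 3.44 ± 0.943 CPM under the control label, and Bak1 (0.65), Bcl2 (0.52) and Ero1l (0.92), the last of which also stands in the list of the ATF6 and XBP1 arms, had the next smallest adjusted p-values. The death receptor gene Tnfrsf10b (0.46), the pore-forming Bax (0.46) and the kinase gene Dapk3 (0.39) rose, while the death genes Bbc3 (0.20) and Bcl2l11 (-0.18) and the survival gene Mcl1 (-0.01) did not pass. Pmaip1 (0.14) was the other gene not called. Bcl2, which rose, is a survival gene as Mcl1 is. Bcl2l11 was lower at an unadjusted p under 0.05 in edgeR, did not pass in DESeq2, and passed the adjusted test without control replicate 1, with upper-quartile scaling and in the fit with the replicate block. Reads from bases shared with another gene may have been counted for either gene or for neither. Besides Gadd45a, Ddit3 and Atf5, the genes named here that share exon bases with an opposite-strand gene of the table are Akt1s1, Aldh1l2, Bak1, Bcl2, Cebpa, Cebpb, Cebpd, Cebpg, Crem, Deptor, Dpep2, Eif2ak1, Eif2ak2, Eif2ak3, Gclm, Gss, Hsp90b1, Jdp2, Manf, Map1lc3b, Ppp1r15a, Ppp1r15b, Psph, Slc6a9 and Sqstm1. In 3 of them a partner moved the same way by more than 3 times in summed counts, with 131 counts under the HFCS label and 28 under the control label for B4galt2 beside Slc6a9, 72 and 14 for Gm45752 beside Dpep2, and 35 and 169 for Gm17494 beside Gclm. On the same strand, Mafg, Cebpg, Hsp90b1, Manf and Bax share exon bases with another gene, and Dpep2 stands under 2 identifiers that share 1585 exon bases.

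**Figure D4:**
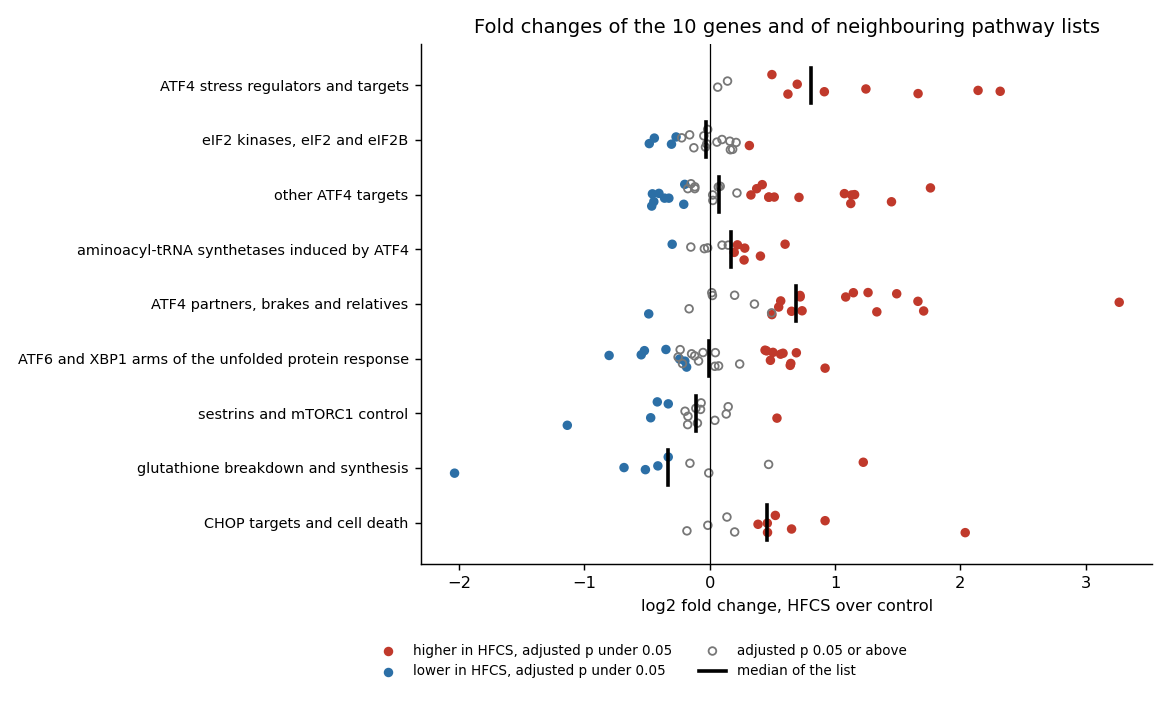
Log2 fold change, HFCS-labelled over control-labelled (horizontal axis), of every tested gene of the 10 described here (top line) and of the 8 neighbouring lists, with filled points for genes past an adjusted p of 0.05, open points for the others and a black bar for each median. Medians are 0.81 for the 10 genes, 0.69 for partners and relatives, 0.46 for CHOP targets and cell death, and -0.33 for glutathione genes.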

How the data were processed

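RNA sequencing was done on 3 HFCS-labelled and 3 control-labelled libraries. The table as deposited holds whole-number counts for each gene, unnormalised. CASAVA, HISAT2 2.0.5, featureCounts 1.5.0-p3 and build mm10 are named per the submitters' processing notes. Sources used here do not state strand setting or annotation release. Symbols were matched for 24344 of 24379 identifiers, exon lengths come from GENCODE M21, and Mars1 was found under an older symbol, Mars. Genes were kept by filterByExpr (minimum count 10), scaled by TMM and compared with glmQLFit and glmQLFTest in edgeR 4.0.16 (R 4.3.3) with no covariate, over all 14360 genes with Benjamini-Hochberg adjustment. CPM uses the scaled library sizes, and each SE comes from the fold change and its F statistic. On simulated data the fit recovered 53.3% of 1.5-fold and 79.6% of 2-fold changes, and 4.35% of its calls were false. Only 200 genes were changed there, while 44.9% of tested genes were called here. The simulation therefore cannot check the scaling under so wide a change. Alternatives were other scalings, DESeq2 1.42.0, limma-voom (limma 3.58.1), other filters, the replicate number as a block, a 2-fold limit and each library left out. The 10 genes and the lists were chosen with earlier results of these data known. All 10 genes are named, with up to 4 genes of smallest adjusted p from each list and others chosen after their values were seen. The values of 1 marker gene are not reported here. Floors and precision cover counting error only.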

Additional observations from a re-analysis of the deposited data

How the results depend on the processing

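The 8 genes that rose did so at an adjusted p under 0.05 under each of the 14 other fits tried, with log2 fold changes from 0.39 to 0.58 for Ddit3, through 0.85 to 0.99 for Atf4, to 2.19 to 2.47 for Trib3. Asns passed under none of them (0.02 to 0.14), and Ddit4 passed only without control replicate 1. Leaving out each library in turn gave 8 to 9 of the 10 genes and 5115 to 7550 of all genes called. A limit of 2-fold beside the adjusted p left 4 of the 10 genes and 1528 of all genes. DESeq2 called 6058 genes and limma-voom 6463. The replicate numbers are not said to pair libraries: same-numbered libraries had correlated deviations of 0.17, -0.06 and 0.19 across genes, and HFCS replicate 2 was closest to control replicate 1. With the replicate block, 8 of the 10 genes and 7152 of all genes were called. Of 240 counts over the neighbouring lists, 204 stayed within 1.5 times, 27 fell below that and 9 rose above it. Of the 27, 14 came from the 2-fold limit, which can only lower a count, and 13 from other settings, for which the cause was not tested. Chac1, at 36 to 47 counts per control-labelled library, rests on the fewest reads of the 10 genes.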
